A study of Mus musculus with 6 samples.

Results

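The genes described here are 37 factors that maintain mitochondrial DNA and RNA, and they were taken by name from a table of 22535 gene rows, in which each of the 37 had 1 row. The list was drawn up by function, but with earlier results of these data known. It holds 10 genes of mitochondrial DNA replication and packaging, 6 of mitochondrial transcription, 12 of RNA processing and stability, 3 of RNA decay and 6 regulators of mitochondrial biogenesis. Polyadenylated RNA was sequenced from B16-BL6, a mouse melanoma line, in 3 libraries with the genotype sgNDUFS4 and 3 with the genotype sgControl. The sgNDUFS4 cells carry a guide RNA against Ndufs4, a nuclear gene for a subunit of respiratory complex I, and the sgControl cells carry a control guide. Both were cultured alike in DMEM with serum and pyruvate, and the study looked for transcriptional changes that accompany the immunogenicity of the sgNDUFS4 cells. The labels do not say whether either genotype is a single clone or a pool, or whether the libraries of a genotype come from separate cultures, so that p-values measure only the spread between these libraries.

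Mitochondrial DNA is a small circle packaged by Tfam and copied by its own polymerase, and it is transcribed from both strands as long precursors by the single-subunit RNA polymerase Polrmt. The precursors are cut largely at the tRNAs, and the released mRNAs are polyadenylated, held by the Lrpprc and Slirp proteins and by the FASTK family, and removed by a degradosome of Pnpt1 and Supv3l1. All of these factors are encoded in the nucleus, and coactivators of the PGC-1 family with the transcription factors Nrf1, Gabpa and Esrra are known to regulate many of their genes.

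The upstream sequences of 3 members that rose or fell are printed here because Nrf1 and Gabpa, whose binding motifs were searched in them, are members themselves. They are RefSeq promoter windows (GRCm38.p6), shown 5′ to 3′ on the strand of the gene, cut to upstream bases outside annotated exons, with motif matches in capitals. The stretch for Polrmt lies at chr10:79746582-79746831 (minus strand) and holds a Gabpa motif, that for Grsf1 at chr5:88675671-88675757 (minus strand) holds an Nrf1 motif, and that for Lrpprc at chr17:84790790-84791036 (minus strand) holds neither. The whole window of Polrmt also holds 2 Nrf1 matches outside the printed stretch. The printed stretch for Grsf1 lies before an internal start, within the annotated bounds of the gene (88659448 to 88676171). Grsf1 has another window, not printed, directly before those bounds (chr5:88676172-88676421), with a Gabpa match and 0 Nrf1 matches. Over all their windows, Polrmt and Grsf1 both have both motifs.
Polrmt: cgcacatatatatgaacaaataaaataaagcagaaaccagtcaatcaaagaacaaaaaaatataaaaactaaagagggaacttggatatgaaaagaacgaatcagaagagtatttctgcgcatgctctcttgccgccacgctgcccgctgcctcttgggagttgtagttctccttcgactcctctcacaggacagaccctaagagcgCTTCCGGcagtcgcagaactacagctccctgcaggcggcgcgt
Grsf1: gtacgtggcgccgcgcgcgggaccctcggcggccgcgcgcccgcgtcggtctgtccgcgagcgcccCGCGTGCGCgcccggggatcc
Lrpprc: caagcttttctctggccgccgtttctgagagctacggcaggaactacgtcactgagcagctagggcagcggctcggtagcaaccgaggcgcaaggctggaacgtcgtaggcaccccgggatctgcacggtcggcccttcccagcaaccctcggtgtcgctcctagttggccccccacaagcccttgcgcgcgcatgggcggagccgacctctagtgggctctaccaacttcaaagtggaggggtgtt

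Windows of 250 bases before to 50 bases after a start were at hand for 32 of the 37 members, in 34 windows, and were searched on both strands. The Gabpa motif CCGGAAG was in 14 of the 34 windows (41.2%), against 18.7% of 11063 windows of genes tested and 8.86% of 32851 windows in all. The Nrf1 motif, written as GCGCANGCG, was in 7 of the 34 (20.6%), against 14.1% of windows of genes tested and 6.25% of all, and no Nrf1 match overlapped another motif. The Esrra motif TCAAGGTCA was in 0 of the 34, against 0.253% of windows of genes tested. At that share a match in 34 windows would be rare, so the 0 does not set the members apart. By call, the Gabpa motif was in a window of 5 of 13 members that rose, 2 of 5 that fell and 7 of 14 that were not called, and the Nrf1 motif in 3, 1 and 3 of the same groups. A match describes the letters only.

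Gene counts per library totalled from 20090607 to 25947374 reads. The labels were checked on the targeted gene: Ndufs4 had 15.0, 15.98 and 16.8 CPM (counts per gene scaled to the total of each library) in the sgNDUFS4 libraries, against 54.3, 55.0 and 52.4 CPM in the sgControl libraries, with a log2 fold change of -1.73 (SE 0.0764). The 7 melanocyte markers, of which Pmel and Mitf rose and 5 fell, summed to between 14508 and 15533 CPM in sgNDUFS4 and between 15409 and 15927 CPM in sgControl. All 4 endothelial markers (Pecam1, Cdh5, Kdr and Tek) were at 0, as was the T cell marker Cd3e, and the leukocyte markers summed to between 3.28 and 9.80 CPM in sgNDUFS4 and between 4.76 and 8.71 CPM in sgControl. Of 6 fibroblast markers Dcn, Lum and Thy1 were at 0, and the list summed to between 41.4 and 46.1 CPM in sgNDUFS4 and between 41.8 and 44.1 CPM in sgControl. The 4 epithelial markers summed to between 0.308 and 1.13 CPM in sgNDUFS4 and between 1.17 and 6.27 CPM in sgControl, with Krt18 at 0, and Krt8 and Cdh1 were called lower. Krt8 was at 4.38, 2.75 and 0 CPM in sgControl and at 0 in every sgNDUFS4 library, so that its groups overlapped. DESeq2 did not call Krt8 (DESeq2 adjusted p = 0.063). The part of these markers in the results below was not tested. Tyr, the melanin-forming tyrosinase, is named after its values were seen, at 3.10 CPM in sgNDUFS4 and 32.3 CPM in sgControl in the mean.

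All 37 members passed the filter of a mean of at least 1 CPM and were tested. The test was limma on log2(CPM + 0.5), two-sided, adjusted over all 11063 genes tested with a threshold of 0.05, and fold changes below are on that scale. In sgNDUFS4, 15 members rose (40.5%), 7 fell (18.9%) and 15 were not called. Over all genes tested 31.8% rose and 20.3% fell, 52.0% in all, so that the members' 59.5% called lay near the background. The groups did not overlap in 23 members (62.2%), against 57.2% of all genes tested. The median log2 fold change was 0.03 over the members and 0.06 over all genes tested. The members' median absolute log2 fold change was 0.16, against 0.21 over all genes, and 1 of 37 changed by at least 1.5-fold, against 12.2% of all genes tested. These comparisons were not matched for level: 36 of the 37 members reached a mean of 5 CPM, against 9655 of the 11063 genes tested. With TMM scaling, which moved the median of all genes by -0.06 on the log2 scale, 11 members were higher and 9 lower, and 49.2% of calls over all genes were higher in place of 61.1%. CPM values are shares of a library, so that fewer cells with a transcript and less of it per cell cannot be told apart.

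**Figure D1:**
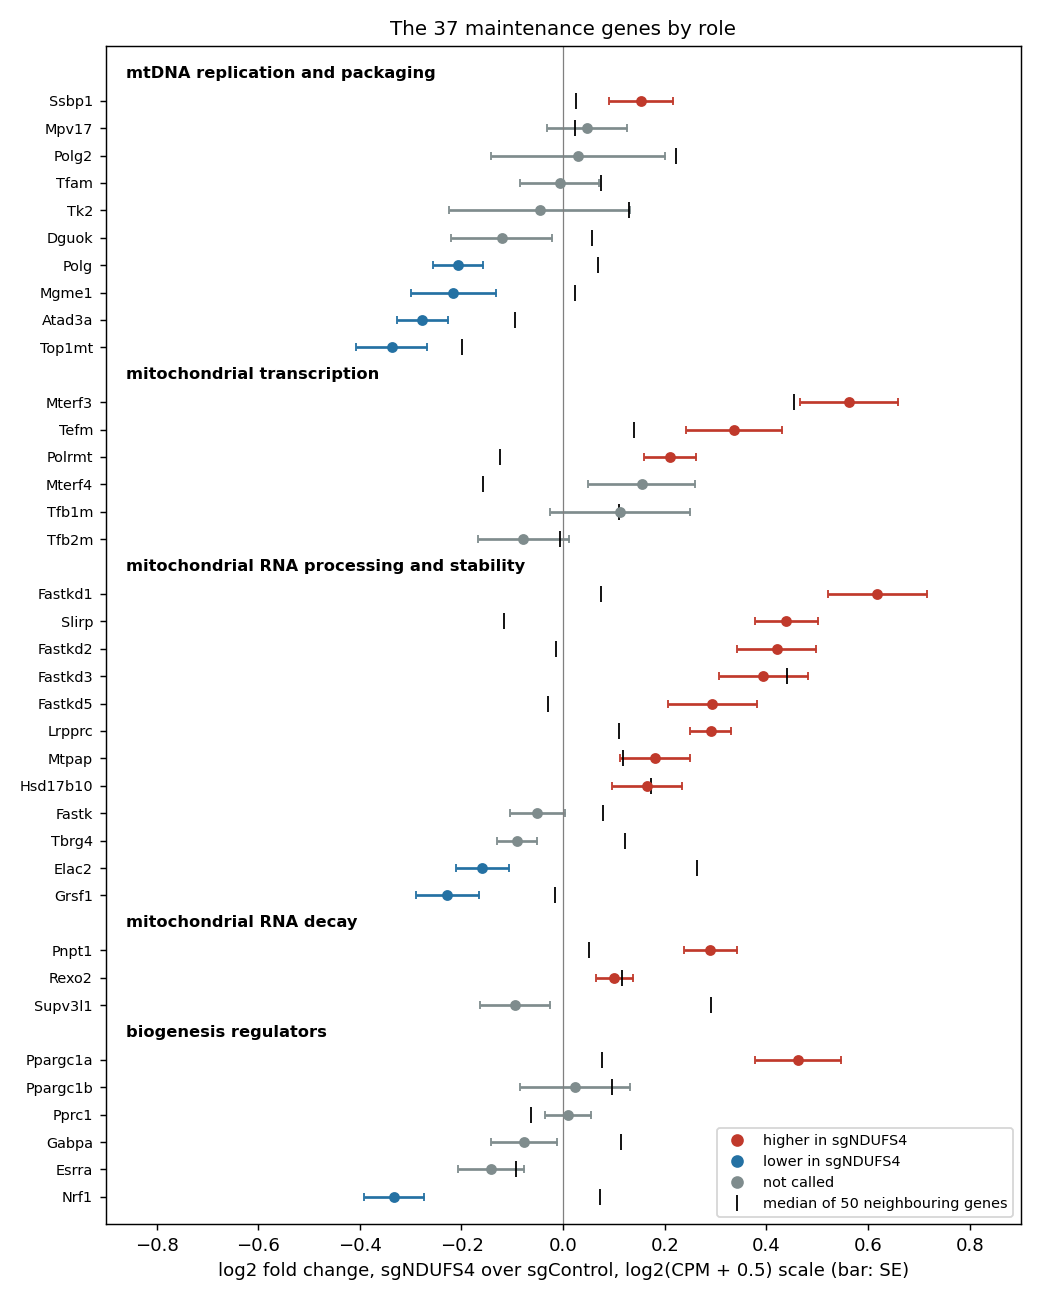
Log2 fold changes (sgNDUFS4 over sgControl, log2(CPM + 0.5) scale) of the 37 members by role, with bars for the SE and a tick for the median fold change of the 50 nearest tested genes on the chromosome. Members that rose are red, those that fell blue and those not called grey; Fastkd1 is highest at 0.62 and Top1mt lowest at -0.34.

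The calls by role are given as counts, beside 31.8% higher and 20.3% lower over all genes tested, and no difference between roles was tested. Of 10 replication and packaging genes 1 rose and 4 fell, of 6 transcription genes 3 rose and 0 fell, and of 12 processing and stability genes 8 rose and 2 fell. Of the 3 decay genes 2 rose and 0 fell. No uncalled gene of the transcription and decay groups had an unadjusted limma p under 0.05, and edgeR and DESeq2 called 0 of either group lower, but regional centring called Supv3l1 of the decay group lower. Of the 6 regulators 1 rose and 1 fell. With TMM scaling the counts were 0 higher and 4 lower for replication, 3 and 0 for transcription, 6 and 3 for processing, 1 and 0 for decay and 1 and 2 for the regulators. Over all 11063 genes tested, TMM scaling gave 2756 higher and 2850 lower, in place of 3514 and 2241. The group medians were -0.08, 0.18, 0.24, 0.10 and -0.03 on the log2 scale in the same order. Summed over its genes, the replication group was at 414, 395 and 407 CPM in sgNDUFS4 and at 464, 437 and 453 CPM in sgControl, and the transcription group at 185, 181 and 184 CPM in sgNDUFS4 and at 152, 164 and 155 CPM in sgControl. Neither sum overlapped between the genotypes. The processing sums, 832 to 849 CPM in sgNDUFS4 and 775 to 795 CPM in sgControl, did not overlap either. Nor did those of decay, at 404 to 422 and 373 to 390 CPM, while the sums of the regulators overlapped. Of single genes tested, 57.2% did not overlap.

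**Figure D2:**
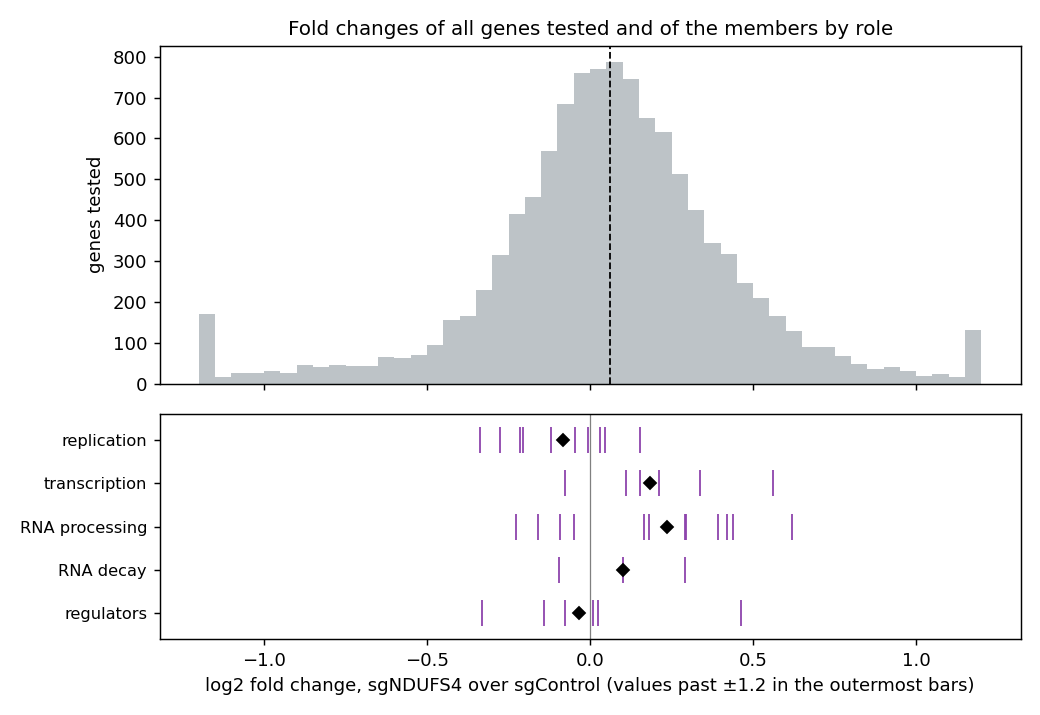
Histogram of the log2 fold change of the 11063 genes tested (dashed line: median, 0.06), above the members' values as ticks by role with a diamond for each group's median. The replication genes' median lies below 0, at -0.08, and those of transcription and RNA processing above the median of all genes, at 0.18 and 0.24.

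Among the replication and packaging genes, the catalytic subunit of the mitochondrial DNA polymerase fell. Polg (chromosome 7, 79446231 to 79466362, GRCm38) was at 110.4, 104 and 111 CPM in sgNDUFS4, against 135, 118 and 123 CPM in sgControl. Every sgNDUFS4 library was below every sgControl library, by 13.5% in the mean (108 ± 3.94 and 125 ± 8.89 CPM, SD, n = 3 each), and its log2 fold change was -0.21 (SE 0.0495, limma adjusted p = 0.0011). Its accessory subunit Polg2 was at 4.54 ± 0.226 CPM in sgNDUFS4 and 4.45 ± 0.463 CPM in sgControl (SD, n = 3 each), and was not called (limma adjusted p = 0.90). Atad3a, an ATPase of the inner membrane that contacts the nucleoids (chromosome 4, 155740641 to 155761093), was at 105, 95.7 and 92.1 CPM in sgNDUFS4, against 117, 123 and 114 CPM in sgControl, without overlap. It fell by 0.28 on the log2 scale (SE 0.0499, limma adjusted p = 4.6e-05). Part of the exons of Polg, 8.57% of their length, overlaps exons of Fanci on the other strand, and the reads carry no strand.

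Top1mt, the mitochondrial type I topoisomerase, was at 35.8, 32.8 and 36.7 CPM in sgNDUFS4, against 43.9, 41.9 and 47.7 CPM in sgControl. Its fall of 0.34 (SE 0.0705, limma adjusted p = 0.00026) lay in a stretch of chromosome 15 (75657035 to 75678800) where the 50 nearest tested genes had a median of -0.20. After each gene was centred on those neighbours it was at -0.09 and no longer called (limma adjusted p = 0.31). Mgme1, an exonuclease that trims mitochondrial DNA ends, was at 21.5, 23.6 and 23.6 CPM in sgNDUFS4, against 27.4, 27.2 and 25.4 CPM in sgControl. The groups did not overlap and it fell by 0.22 (SE 0.0829, limma adjusted p = 0.031). Without sgNDUFS4 replicate 1, sgControl replicate 1 or sgControl replicate 2 it was not called (limma adjusted p = 0.13, 0.088 and 0.086).

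One gene of this group rose. Ssbp1, which coats single-stranded mitochondrial DNA, was at 56.2, 53.6 and 52.3 CPM in sgNDUFS4, against 49.4, 44.9 and 51.5 CPM in sgControl, and rose by 0.15 on the log2 scale (SE 0.063, limma adjusted p = 0.045). The lowest sgNDUFS4 library was only just above the highest sgControl library. The call was lost with TMM scaling (limma adjusted p = 0.22), and in the fits without sgNDUFS4 replicate 1, sgNDUFS4 replicate 2, sgControl replicate 1 or sgControl replicate 2 (limma adjusted p = 0.17, 0.081, 0.062 and 0.24). It was also lost after centring, without the variance trend and without the filter (limma adjusted p = 0.12, 0.10 and 0.066).

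Tfam, which packages mitochondrial DNA and starts its transcription, was at 27.7, 29.6 and 31.8 CPM in sgNDUFS4, against 30.7, 28.5 and 30.2 CPM in sgControl. The groups overlapped, and the log2 fold change of -0.01 (SE 0.0776) was not called (limma adjusted p = 0.95). The inner membrane protein Mpv17 and the deoxynucleoside kinases Dguok and Tk2, which supply nucleotides for mitochondrial DNA, were not called either, with log2 fold changes of 0.05, -0.12 and -0.05. On the same strand as Mpv17, exons of Gm29609 cover 14.4% of its exon length. Gm29609 was at 138 ± 2.53 CPM in sgNDUFS4 and 129 ± 6.12 CPM in sgControl (SD, n = 3 each), and was not called (limma adjusted p = 0.052). Tk2 was low, at 5.52 ± 1.49 CPM in sgNDUFS4 and 5.63 ± 0.701 CPM in sgControl (SD, n = 3 each).

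Among the transcription genes, the polymerase and its elongation factor rose. Polrmt (chromosome 10, 79736123 to 79746581) was at 92.2, 90.8 and 89.7 CPM in sgNDUFS4, against 74.4, 83.7 and 77.6 CPM in sgControl, without overlap. It rose by 0.21 on the log2 scale (SE 0.0513, limma adjusted p = 0.0012), where its neighbours on the chromosome had a median of -0.12. Tefm, which makes the polymerase processive (chromosome 11, 80136678 to 80142175), was at 20.2, 21.7 and 24.7 CPM in sgNDUFS4, against 18.1, 17.1 and 17.1 CPM in sgControl. The groups did not overlap, although sgNDUFS4 replicate 1 was near the sgControl values. It rose by 0.34 (SE 0.0953, limma adjusted p = 0.0046), and after centring on its neighbours it was at 0.20 and not called (limma adjusted p = 0.087).

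Mterf3, described in mice as a repressor of mitochondrial transcription, was at 22.7, 21.04 and 21.6 CPM in sgNDUFS4, against 15.5, 14.8 and 13.5 CPM in sgControl. Its rise of 0.56 (SE 0.0963, limma adjusted p = 2.4e-05) was the second highest among the members. It lies on chromosome 13 (66906968 to 66933088), where its 50 neighbours had a median of 0.45, and after centring it was at 0.15 and not called (limma adjusted p = 0.22). Mterf4, which brings the rRNA methyltransferase Nsun4 to the mitochondrial ribosome, was at 18.1 ± 1.84 CPM in sgNDUFS4 and 16.2 ± 1.39 CPM in sgControl (SD, n = 3 each), and was not called (limma adjusted p = 0.22). Exons of Sned1 on the other strand cover 35.2% of its exon length, and Sned1 was at 0 CPM in sgNDUFS4 and 0.528 CPM in sgControl in the mean. The neighbours of Mterf4 had a median of -0.16, and after centring it was at 0.33 and called (limma adjusted p = 0.014).

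The initiation factor Tfb2m was at 20.5, 20.0 and 20.5 CPM in sgNDUFS4, against 20.7, 23.5 and 20.5 CPM in sgControl. The groups overlapped and sgControl replicate 2 stood highest, and its difference on the log2 scale was -0.08 (SE 0.0899, limma adjusted p = 0.49). Tfb1m, an rRNA dimethyltransferase, was at 9.87 ± 1.31 CPM in sgNDUFS4 and 9.10 ± 1.23 CPM in sgControl (SD, n = 3 each), and was not called (limma adjusted p = 0.52). Tfam and Tfb2m, which start transcription with the polymerase, were thus both not called.

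The RNA-binding partners Lrpprc and Slirp, which form a complex that protects mitochondrial mRNAs, both rose. Lrpprc (chromosome 17, 84705247 to 84790789) was at 199, 187 and 188 CPM in sgNDUFS4, against 152, 159 and 157 CPM in sgControl, and rose by 0.29 (SE 0.0395, limma adjusted p = 9.5e-07). Slirp (chromosome 12, 87443896 to 87452206) was at 63.5, 61.9 and 64.1 CPM in sgNDUFS4, against 43.1, 50.6 and 46.1 CPM in sgControl, and rose by 0.44 (SE 0.0623, limma adjusted p = 1.7e-06). Neither overlapped between the groups. The reads of Lrpprc over those of Slirp were 3.13, 3.02 and 2.93 in sgNDUFS4 and 3.54, 3.15 and 3.41 in sgControl. Annotated exons of Snw1 on the other strand cover 93.9% of the exon length of Slirp, so that reads of the pair cannot be told apart without strand. Snw1 itself was at 169 ± 4.68 CPM in sgNDUFS4 and 201 ± 5.45 CPM in sgControl (SD, n = 3 each), a change in the opposite direction.

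**Figure D3:**
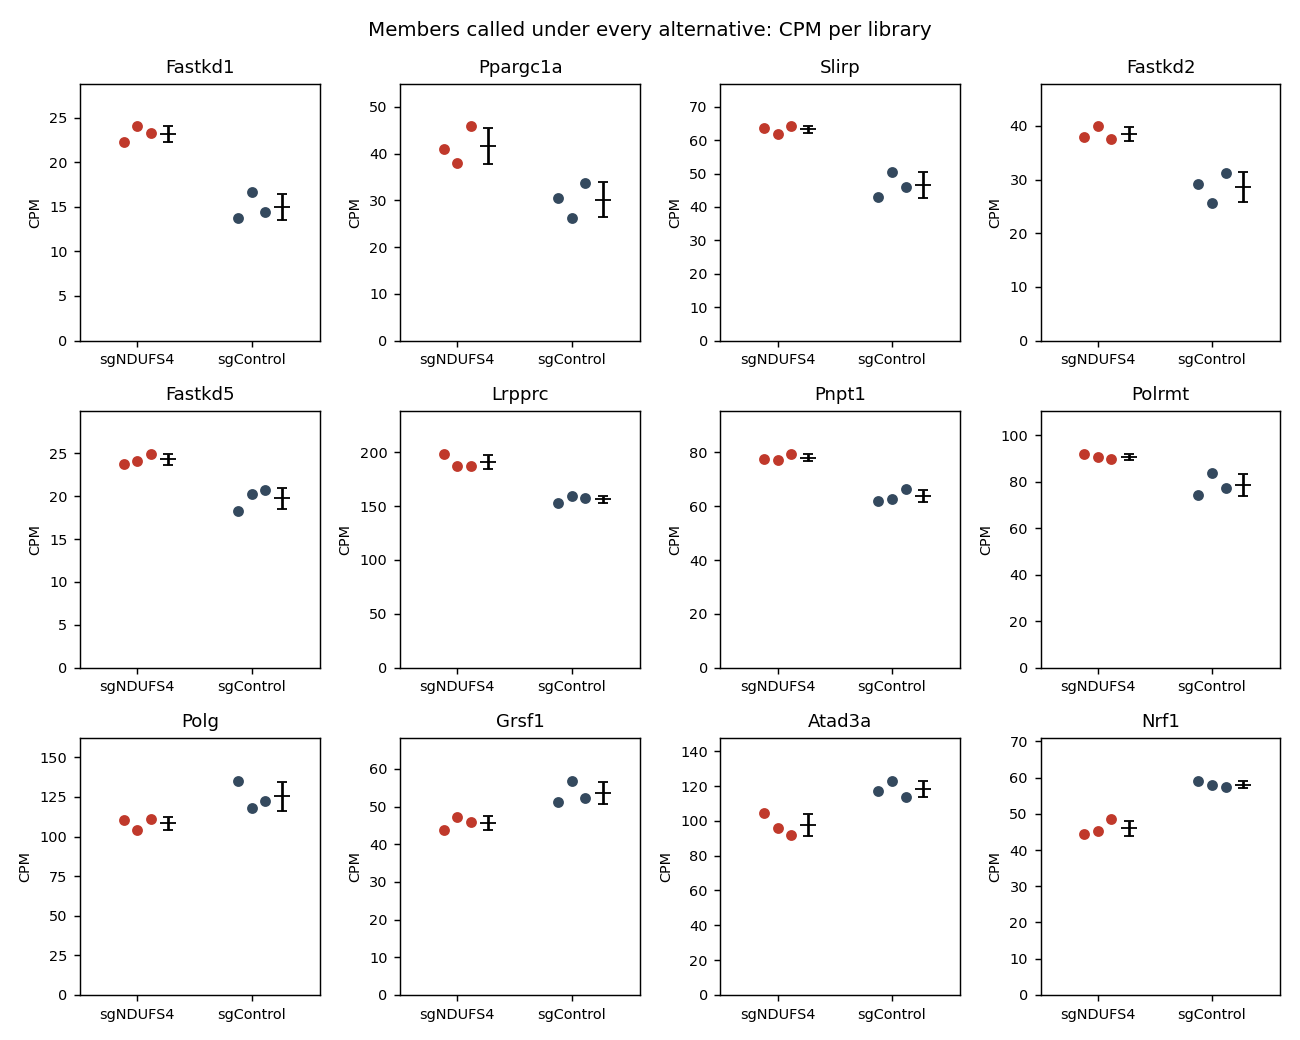
CPM per library for the 12 members called in the same direction under all 16 alternatives, with the mean and SD (n = 3 per group) beside the points and axes from 0. How many of all genes tested held in this way was not counted. In each panel the 3 sgNDUFS4 libraries do not overlap the 3 sgControl libraries; Fastkd1 to Polrmt were higher and Polg to Nrf1 lower in sgNDUFS4.

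Of the 6 members of the FASTK family of mitochondrial RNA-binding proteins, 4 rose, beside 31.8% of all genes tested. After centring on the neighbours, Fastkd3 was no longer called and Tbrg4 was called lower. Fastkd1 (chromosome 2, 69686815 to 69713516) had the highest fold change of the 37 genes, at 22.3, 24.0 and 23.3 CPM in sgNDUFS4, against 13.8, 16.7 and 14.5 CPM in sgControl. It was 54.9% higher in the mean and rose by 0.62 (SE 0.0971, limma adjusted p = 7.4e-06). Fastkd2, needed for the large ribosomal RNA (chromosome 1, 63730614 to 63754655), was at 38.0, 39.9 and 37.5 CPM in sgNDUFS4, against 29.1, 25.7 and 31.2 CPM in sgControl. It rose by 0.42 (SE 0.0774, limma adjusted p = 6.1e-05), and for both genes all sgNDUFS4 libraries lay above all sgControl libraries. After centring on their neighbours, Fastkd1 and Fastkd2 were at 0.52 and 0.40 and still called.

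Fastkd5, which takes part in cutting precursors that tRNAs do not flank (chromosome 2, 130613840 to 130630027), was at 23.8, 24.1 and 24.97 CPM in sgNDUFS4, against 18.3, 20.3 and 20.7 CPM in sgControl. It rose by 0.29 (SE 0.0873, limma adjusted p = 0.0066) without overlap of the groups. Exons of Ubox5 on the same strand cover 65.2% of its exon length, and how reads were assigned between the pair is not given in the sources used here. Ubox5 was at 32.0 ± 1.87 CPM in sgNDUFS4 and 29.1 ± 0.364 CPM in sgControl (SD, n = 3 each), and was not called (limma adjusted p = 0.13).

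Fastkd3 was at 23.4, 23.1 and 23.3 CPM in sgNDUFS4, against 18.1, 17.2 and 17.5 CPM in sgControl, and rose by 0.39 (SE 0.0879, limma adjusted p = 0.00054). The libraries of each group lay close together and the groups did not overlap. It lies on chromosome 13 (68582234 to 68592338) near Mterf3, where its 50 neighbours had a median of 0.44, and after centring it was at -0.03 (limma adjusted p = 0.83). The other FASTK genes were not called. Tbrg4, also known as FASTKD4, was at 221, 217 and 207 CPM in sgNDUFS4, against 240.2, 226 and 221 CPM in sgControl. Its log2 fold change of -0.09 (SE 0.039) missed the threshold (limma adjusted p = 0.052), and it was called lower with TMM scaling (limma adjusted p = 0.0026), after centring (limma adjusted p = 0.00041), and in the fits without sgNDUFS4 replicate 1 or sgControl replicate 3 (limma adjusted p = 0.0497 and 0.021). Fastk, which in mice is needed for the mRNA of mt-Nd6, was at 62.3 ± 2.01 CPM in sgNDUFS4 and 64.5 ± 0.994 CPM in sgControl (SD, n = 3 each, limma adjusted p = 0.45). Exons of Slc4a2 on the other strand cover 26.1% of the exon length of Fastk, and Slc4a2 fell, at 272 ± 14.9 CPM in sgNDUFS4 and 306 ± 4.56 CPM in sgControl (SD, n = 3 each).

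Of the other processing genes, Grsf1 and Elac2 fell. Grsf1, a protein of mitochondrial RNA granules (chromosome 5, 88659448 to 88676171), was at 43.7, 47.2 and 46.0 CPM in sgNDUFS4, against 51.3, 56.9 and 52.4 CPM in sgControl, and fell by 0.23 (SE 0.0623, limma adjusted p = 0.0035). Elac2, the endonuclease that cuts tRNA 3′ ends, was at 72.5, 76.1 and 76.1 CPM in sgNDUFS4, against 86.7, 86.1 and 78.5 CPM in sgControl, and fell by 0.16 (SE 0.0524, limma adjusted p = 0.013). Neither overlapped between the groups. The fall of Elac2 stood in a region of chromosome 11 (64979038 to 65002069) whose 50 genes had a median of 0.26, and after centring it was at -0.42 (limma adjusted p = 1.2e-06). Without sgNDUFS4 replicate 1, sgControl replicate 1 or sgControl replicate 2 it was not called (limma adjusted p = 0.067, 0.064 and 0.058), nor without the variance trend (limma adjusted p = 0.062).

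Mtpap, the mitochondrial poly(A) polymerase, was at 42.6, 41.3 and 38.3 CPM in sgNDUFS4, against 37.3, 35.6 and 34.7 CPM in sgControl, and rose by 0.18 (SE 0.0689, limma adjusted p = 0.031). Exons of the antisense gene Gm26865 cover 18.5% of its exon length. Hsd17b10, a dehydrogenase that is also a subunit of mitochondrial RNase P, was at 38.4, 42.7 and 42.1 CPM in sgNDUFS4, against 35.7, 36.4 and 37.5 CPM in sgControl, and rose by 0.16 (SE 0.0681, limma adjusted p = 0.045). The groups did not overlap in either gene, but the calls were not steady. With TMM scaling both were lost (limma adjusted p = 0.15 for Mtpap and 0.20 for Hsd17b10), as after centring, where they were at 0.08 and -0.03. In the fits that left out a library, Mtpap was not called without sgNDUFS4 replicate 1, sgNDUFS4 replicate 2, sgControl replicate 2 or sgControl replicate 3 (limma adjusted p = 0.13, 0.087, 0.070 and 0.086). Hsd17b10 was not called without sgNDUFS4 replicate 2, sgNDUFS4 replicate 3, sgControl replicate 1 or sgControl replicate 2 (limma adjusted p = 0.16, 0.13, 0.11 and 0.089), nor without the variance trend or the filter (limma adjusted p = 0.057 and 0.052).

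Among the decay factors, Pnpt1, the exoribonuclease of the degradosome (chromosome 11, 29130744 to 29161828), rose. It was at 77.5, 77.0 and 79.5 CPM in sgNDUFS4, against 62.0, 62.9 and 66.4 CPM in sgControl, a rise of 0.29 (SE 0.0522, limma adjusted p = 4.6e-05) without overlap. Its helicase partner Supv3l1 was at 41.9, 45.9 and 39.1 CPM in sgNDUFS4, against 47.2, 44.5 and 43.7 CPM in sgControl. Those groups overlapped and the log2 fold change of -0.10 (SE 0.0682) was not called (limma adjusted p = 0.25). The neighbours of Supv3l1 had a median of 0.29, and after centring it was at -0.35 and called lower (limma adjusted p = 0.00024). The reads of Pnpt1 over those of Supv3l1 were 1.85, 1.68 and 2.04 in sgNDUFS4 and 1.31, 1.41 and 1.52 in sgControl.

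Rexo2, which degrades the shortest RNA fragments, had the highest level of the 37 genes per kilobase of exon, at 87.2 CPM in sgNDUFS4 and 81.3 CPM in sgControl, and Polg2 the lowest, at 1.04 and 1.02 CPM. In the libraries Rexo2 was at 302, 298 and 285 CPM in sgNDUFS4, against 264, 283 and 279 CPM in sgControl, a rise of 0.10 (SE 0.0361, limma adjusted p = 0.021). The lowest sgNDUFS4 library stood close to the highest sgControl library. The call was lost with TMM scaling (limma adjusted p = 0.37), after centring (limma adjusted p = 0.96), without the variance trend (limma adjusted p = 0.15) and in the fits without sgNDUFS4 replicate 1, sgNDUFS4 replicate 2 or sgControl replicate 1 (limma adjusted p = 0.11, 0.077 and 0.13).

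The regulators of biogenesis split. Ppargc1a, the coactivator PGC-1α (chromosome 5, 51454250 to 51567726), was at 41.0, 38.1 and 45.8 CPM in sgNDUFS4, against 30.6, 26.3 and 33.6 CPM in sgControl. The groups did not overlap, and it rose by 0.46 (SE 0.0846, limma adjusted p = 5.6e-05), or 38.1% in the mean. Nrf1, a transcription factor through which PGC-1α is known to act (chromosome 6, 30047988 to 30153458), was at 44.5, 45.2 and 48.4 CPM in sgNDUFS4, against 59.1, 57.8 and 57.3 CPM in sgControl. It fell by 0.33 (SE 0.0594, limma adjusted p = 4.1e-05), or 20.7% in the mean, and no sgNDUFS4 library reached an sgControl library. Both calls stood after centring, at 0.41 for Ppargc1a and -0.44 for Nrf1.

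The other regulators were not called. Pprc1, a coactivator related to PGC-1α, was at 172, 169.9 and 157 CPM in sgNDUFS4, against 169, 173 and 154 CPM in sgControl, with overlap and a log2 difference of 0.01 (SE 0.0455, limma adjusted p = 0.88). Ppargc1b, the coactivator PGC-1β, was at 16.4 ± 1.85 CPM in sgNDUFS4 and 16.1 ± 1.50 CPM in sgControl (SD, n = 3 each). Gabpa, an ETS factor, and Esrra, an orphan nuclear receptor, had log2 fold changes of -0.08 and -0.14 (limma adjusted p = 0.33 and 0.071). Atp5j, whose exons on the other strand cover 6.98% of the exon length of Gabpa, rose by 0.43 (limma adjusted p = 9.1e-09). It was at 242 ± 11.2 CPM in sgNDUFS4 and 180 ± 11.1 CPM in sgControl (SD, n = 3 each), and its part in the value of Gabpa was not tested. Esrra was called lower with TMM scaling (limma adjusted p = 0.014) and in the fits without sgNDUFS4 replicate 1 or sgControl replicate 1 (limma adjusted p = 0.038 and 0.044), and Gabpa after centring, at -0.20 (limma adjusted p = 0.017).

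**Figure D4:**
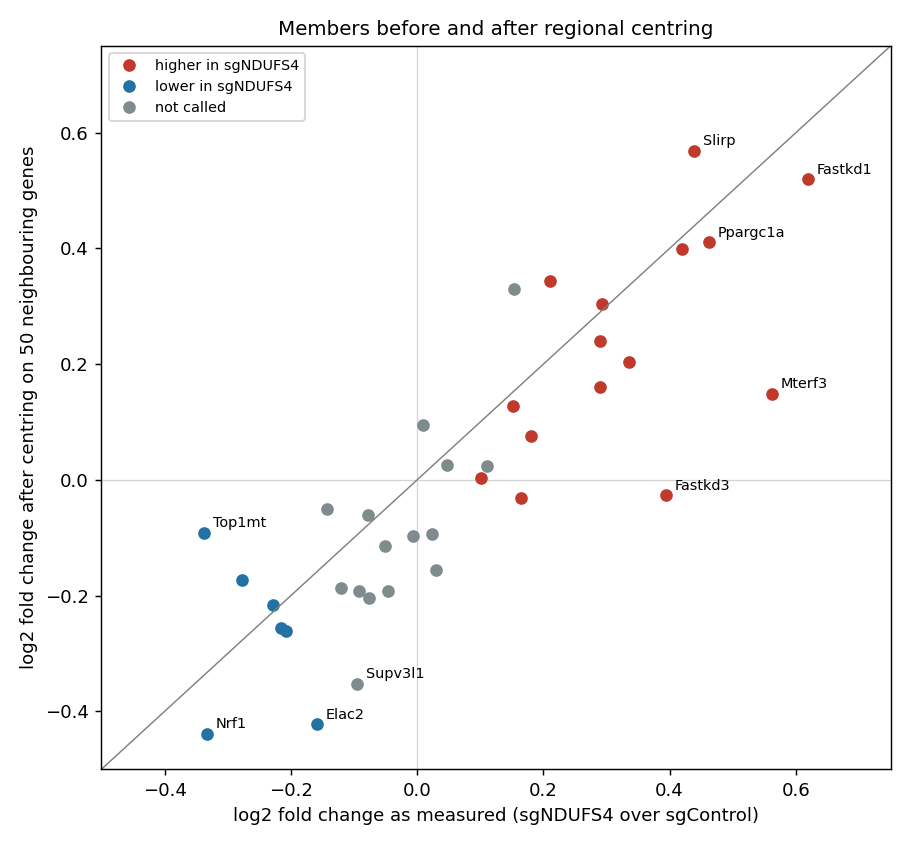
Log2 fold change of each member as measured (x axis) and after centring on the 50 nearest tested genes of its chromosome (y axis), with the line of equality and colours for the calls as measured. Mterf3 and Fastkd3 lie furthest below the line, at 0.15 and -0.03 after centring, and Elac2 and Supv3l1 lie at -0.42 and -0.35.

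Of the 22 calls, 14 stood in the same direction after centring on the chromosomal neighbours and 8 were lost, those of Ssbp1, Top1mt, Tefm, Mterf3, Fastkd3, Mtpap, Hsd17b10 and Rexo2. Another 4 members were called after centring, Mterf4 higher and Tbrg4, Supv3l1 and Gabpa lower, for 9 higher and 9 lower in all. Of the 10896 genes that could be centred, 2367 were called higher and 2394 lower, so that the calls of all genes were split about evenly too. The measured and centred values differed by at least 0.2 on the log2 scale for Top1mt, Mterf3, Fastkd3, Elac2 and Supv3l1.

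The calls of 12 members held in direction and threshold under all 16 alternatives: Fastkd1, Ppargc1a, Slirp, Fastkd2, Fastkd5, Lrpprc, Pnpt1 and Polrmt higher, and Nrf1, Atad3a, Grsf1 and Polg lower. Their highest adjusted p under any alternative was 0.044, for Polg. How many of all genes tested held in this way was not counted, so the 12 cannot be set against a background. Single alternatives called from 4761 to 5941 genes in all. No alternative addressed the exon overlap of Slirp with Snw1 or of Fastkd5 with Ubox5.

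Other genes of the same pathways were taken in lists by function. Of 24 further genes of mitochondrial DNA replication, repair and nucleotide supply, 7 were called higher and 3 lower, and the median log2 fold change was 0.01. The nuclease Dna2, the ligase Lig3, the topoisomerase Top3a and the protease Lonp1 rose by 0.58, 0.35, 0.46 and 0.22, and the pyrimidine nucleotide carrier Slc25a33 fell by 0.58 (limma adjusted p of 3.6e-05 or less). Dna2, Lig3 and Top3a act in the nucleus too, and the call of Lig3 was lost after centring on its neighbours (limma adjusted p = 0.25). The replicative helicase Twnk was at 36.3 CPM in sgNDUFS4 and 39.5 CPM in sgControl and was not called (limma adjusted p = 0.16), though called lower with TMM scaling (limma adjusted p = 0.036). It is named after its values were seen.

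Of 41 further genes of mitochondrial RNA processing, modification and decay, 40 had a row in the table. All 40 passed the filter, with 11 higher, 3 lower and a median log2 fold change of 0.10. Trit1, which modifies tRNA, Mettl17, a factor of mitochondrial ribosome assembly, Ngrn, a factor for the large ribosomal RNA, and Ddx28, a helicase of RNA granules, rose by 0.81, 0.61, 0.43 and 0.39, and the pseudouridine synthase Pus1 fell by 0.25 (limma adjusted p of 0.0012 or less). Of both lists together 37.5% were called, against 52.0% of all genes tested. Under TMM scaling the 64 genes gave 16 higher and 11 lower, in place of 18 and 6. Over all 11063 genes tested, that scaling gave 2756 higher and 2850 lower.

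The transcripts on which these factors act were measured in the same libraries. The 13 mitochondrially encoded mRNAs summed to 35130, 35615 and 35723 CPM in sgNDUFS4, against 25870, 27568 and 27885 CPM in sgControl. Of the 13, 12 were called higher (92.3%), against 31.8% of all genes tested. The exception was mt-Nd3, at 6.43, 6.61 and 5.59 CPM in sgNDUFS4, against 5.43, 6.47 and 5.79 CPM in sgControl, with overlap and a log2 difference of 0.07 (SE 0.154, limma adjusted p = 0.73). It had the lowest mean of the 13, 6.05 CPM, so that a rise as small as that of mt-Nd1 (0.26) could have been missed. Of the called mRNAs, mt-Atp8 was at 165, 66.5 and 70.6 CPM in sgNDUFS4, against 40.9, 50.6 and 56.5 CPM in sgControl. DESeq2 did not call it (DESeq2 adjusted p = 0.065). The mRNAs come from shared precursors, so their calls are not independent. With polyadenylated RNA, changes in amount and in tails cannot be told apart. The gene of mt-Nd6 lies on the minus strand, and the reads carry no strand. In human cells FASTKD1, whose mouse gene rose most of the 37, is known to lower the mRNA of ND3. Whether the level of Fastkd1 bears on mt-Nd3 here was not tested.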

How the data were processed

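Polyadenylated RNA of 6 libraries was sequenced in paired ends without strand, and the submitters' processing notes name HISAT2 as a tool and GRCm38 as the build. Which tool and annotation gave the gene counts is not stated there or in the labels. The deposited table holds CPM values per gene, which the authors scaled so that every library has the same total. Whole reads were recovered from the CPM steps (99.98% to 100% of values above 0 whole within 0.01). The authors' own fold changes and p-values were not used.

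limma 3.58.1 (R 4.3.3) with a mean-variance trend was fitted to log2(CPM + 0.5) of every gene whose mean reached 1 CPM, with Benjamini-Hochberg adjustment. edgeR 4.0.16 on the recovered reads called 5583 genes, and DESeq2 1.42.0 on them 5370. Gene positions and merged exon lengths came from GENCODE on GRCm38, matched by symbol for 37 of 37 members. On simulated reads (11069 genes tested, dispersion 0.002), limma recovered 30%, 86%, 96% and 100% of 50 genes each changed 1.15-, 1.25-, 1.5- and 2-fold, with 9 false calls. In that setting changes near the smallest fold were often missed. Far fewer genes were changed there than the 5755 called in the data, and the adjustment depends on that number. These rates therefore do not carry over to the main fit. Libraries were not paired, and no 2 replicates were alike within counting error (chi-square statistic divided by genes, 3.53 to 5.31).

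The members and lists were chosen with earlier results of these data known. Every member is named; values per library are given for each called member whose higher group reached 5 CPM and for the uncalled member with the highest mean in each role, and up to 5 called genes of each further list are named by adjusted p. The settings varied were the pseudocount (0.1 and 1), the filter (none and 5 CPM), TMM scaling, the variance trend and a replicate block. Each library was also left out in turn, edgeR and DESeq2 were run, and fold changes were centred on chromosomal neighbours. The value of 1 marker gene is not reported here.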

Additional observations from a re-analysis of the deposited data

How the results depend on the processing

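The numbers of members called higher and lower stayed within 1.5 times under the alternatives tried except regional centring, which left 9 higher. With each library left out, 11 to 14 members were called higher and 5 to 8 lower. The median log2 fold change of the members, 0.030, was -0.023 with TMM scaling, -0.028 with edgeR, -0.028 with DESeq2 and -0.031 with regional centring, and with each library left out lay between 0.012 (without sgControl replicate 2) and 0.071 (without sgControl replicate 1). Of the further pathway genes 11 were called lower with TMM scaling, edgeR, DESeq2 and regional centring, and 11 higher with regional centring. Values that changed sign belonged to members that were not called, apart from Fastkd3 (-0.026) and Hsd17b10 (-0.031) with regional centring. With TMM scaling, edgeR and DESeq2 in turn, Polg2 was at -0.023, -0.028 and -0.028, Mpv17 at -0.011, -0.014 and -0.014, Ppargc1b at -0.034, -0.031 and -0.032 and Pprc1 at -0.050, -0.051 and -0.052. With regional centring Polg2 was at -0.16 and Ppargc1b at -0.094. With each library left out, Tfam lay between -0.056 and 0.041, Tk2 between -0.24 and 0.091, Polg2 between -0.047 and 0.086, Ppargc1b between -0.064 and 0.083 and Pprc1 between -0.040 and 0.049. The cause of these changes was not tested. Same-numbered libraries deviated together only weakly (r of 0.056, 0.012 and 0.097), and unlike-numbered ones had r from -0.087 to 0.035. The labels give no shared source for a number, so the numbers were not taken as pairs. The fit with a replicate block kept all 22 member calls, added Tbrg4 (15 higher and 8 lower) and called 5941 genes in all, against 5755. With 3 libraries a group, small changes of the lowest genes, such as Polg2 at 4.49 CPM in the mean, were not detectable.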
